A study of Saccharomyces cerevisiae with 109 samples.

Results

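The SNZ and SNO genes of Saccharomyces cerevisiae are 6 of the 6297 genes in the expression table: SNZ1 (YMR096W), SNO1 (YMR095C), SNZ2 (YNL333W), SNO2 (YNL334C), SNZ3 (YFL059W) and SNO3 (YFL060C). They were taken by name as the gene family of SNZ1. SNZ1 was itself chosen by its high ratio in unstressed rpd3 cells over wild type, so those values are given below as a description with no test.

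Each SNZ gene encodes the synthase subunit, and each SNO gene the glutaminase subunit, of an enzyme that makes pyridoxal 5′-phosphate, the active form of vitamin B6 and the cofactor of the transaminases and many other enzymes of amino acid metabolism. The genes lie in head-to-head SNZ and SNO pairs. The SNZ1 and SNO1 pair is known in yeast for its expression in stationary phase and under amino acid limitation, where the activator Gcn4p acts. The SNZ2 and SNO2 pair and the SNZ3 and SNO3 pair are close copies of each other near chromosome ends, and each lies beside a gene of the THI5 family, which makes the pyrimidine of thiamine (vitamin B1). In the RefSeq annotation (assembly R64) THI12, AAD14 and RPD3 follow SNZ2 in that order, so the gene deleted in rpd3 cells is the third gene from SNZ2, and DDI2 and COS1 follow SNO2. SNZ3 and SNO3 are flanked in the same way by THI5 and AAD6 on one side and DDI3 and COS4 on the other. SNO1 and SNZ1 lie between CTF13 and MTG1.

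RNA was measured on 109 arrays with 2 dyes, and every value below is a log2 ratio of the 2 RNAs on 1 array. On 3 arrays the RNA of unstressed rpd3 cells was set against that of unstressed BY4741 wild type. On the other arrays stressed cells were set against unstressed cells of the same strain. A strain that starts at another level, high or low, and a strain that responds differently cannot be told apart there. Rpd3p is the histone deacetylase of the Rpd3L and Rpd3S complexes, Pho23p belongs to Rpd3L, Rco1p to Rpd3S, Ume6p brings Rpd3L to promoters, and Msn2p and Msn4p are activators of general stress genes.

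The strains rpd3 (30 arrays), pho23 (7), rco1 (7), ume6 (4), msn2/msn4 (3), msn2/msn4/rpd3 (3) and wild type (35) are in the BY4741 background, a laboratory strain that lacks HIS3, LEU2, MET15 and URA3, and were grown in rich YPD medium. RPD3 was replaced by KANMX in the rpd3 strain and by LEU2 in the msn2/msn4/rpd3 strain, and each mutant is 1 strain. Heat shock was a shift from 25°C to 37°C, sampled for 5 to 60 min in 2 courses per strain. The labels of the second rpd3 course give 30°C for its unstressed culture. H2O2 was added to 0.4 mM and sampled from 10 to 60 min in 1 course per strain for rpd3, pho23, rco1 and wild type, with further arrays at 30 min. NaCl was added to 0.75 M by the source labels (slightly less by the descriptions) and sampled from 15 to 90 min in 2 courses per strain. Stress relief was the return of cells grown at 37°C to 25°C, sampled for 5 to 60 min in 2 courses per strain. The description of 1 stress relief course names wild type where its source label and title name rpd3, and it was used as rpd3. The H4KQ strain RMY491, whose histone H4 carries glutamine in place of N-terminal lysines, and its own wild type NSY429 (3 arrays each) were grown in SC-Trp medium, and plasmid strains in SC-Leu. TSA, the deacetylase inhibitor trichostatin A, was used at 10 µM in DMSO, with wild type in DMSO alone beside it. The study's methods describe the unstressed comparison and the single-time 30 min H2O2 experiments as triplicates, while the labels do not tie arrays to separate cultures, so the p-values measure the spread between these arrays, which may be partly technical.

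The direction of the ratios followed from the labels and was borne out by HSP26, a heat shock gene, which lay above 0 on all 89 stress arrays that measured it and below 0 on all 14 stress relief arrays. Between 4288 and 6115 genes had a value on an array, array medians lay between -0.13 and 0.16, and no arrays were identical. RPD3 had a ratio of -2.56 on the 1 of 3 unstressed rpd3 over wild type arrays that measured it. The stress arrays of a mutant hold no wild-type RNA, so the ratio of its deleted gene there is no check of its level. RPD3 had a value on 15 of the 33 arrays of rpd3 and msn2/msn4/rpd3 (from -1.79 to 2.63) and on all 35 wild-type arrays. UME6 had none on 4 ume6 arrays, RCO1 had a value on 4 of 7 rco1 arrays, and PHO23 on all 7 pho23 arrays. MSN4 had a value on all 6 arrays of the strains that lack it, between 0.44 and 1.52.

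In unstressed rpd3 cells the members at the SNZ1 locus were high and those at the SNZ2 locus low relative to wild type. SNZ1 had ratios of 2.62, 2.49 and 2.70 on the 3 arrays, which is 6.07-fold at the mean of 2.60 ± 0.11 (SD, n = 3). The 3 arrays lie close together for SNZ1, and the dyes were exchanged on 1 of them, replicate 3. Over all genes replicate 3 had r between 0.375 and 0.380 with the other 2 arrays. SNZ1 ranked 3 of the 4426 genes measured on all 3 arrays, with YDR034W-B (2.83) next above it and YOR382W (FIT2, a cell wall protein of iron uptake, 2.53) next below. SNO1, its partner, was measured on replicate 3 alone, at 1.36. SNZ2 had ratios of -3.37 on replicate 1 and -1.48 on replicate 3 and no value on replicate 2. Both lie far below 0, and they differ by more than the 3 SNZ1 arrays do. SNO2 (-0.92) and SNO3 (-0.35) were each measured on replicate 3 alone, and SNZ3 on none. Of the 4426 genes, 3.5% (2.53% upwards and 0.972% downwards) passed limma's test at an adjusted p under 0.05, which is given as background only.

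The genes around SNZ2 were also at or below 0 in unstressed rpd3 cells. THI12, the THI5-family gene next to SNZ2, had a mean of -1.17 ± 0.94 and COS1, a subtelomeric membrane protein gene, of -2.38 ± 1.41 (SD, n = 3 each), with all 3 arrays below 0 for both. A low ratio was not particular to THI12 within its family. THI13, which lies beside no SNZ gene, had a mean of -1.52 on 2 arrays, and THI5 had -0.97 on 1 array. How far each THI5-family spot reads its own gene alone was not tested. COS4, which takes the place of COS1 beside SNO3, had a mean of -2.13 ± 0.59. AAD14 and AAD6, aryl alcohol dehydrogenase genes, lay nearer 0 at -0.32 ± 0.16 and -0.41 ± 0.23 (SD, n = 3 each). At the SNZ1 locus MTG1 had a mean of 0.43 ± 0.27 and ATP25 of -0.29 ± 0.32 (SD, n = 3 each), both far below the 2.60 of SNZ1. Of 27 measured genes of Gcn4p and amino acid synthesis 20 lay above 0, with a median of 0.33, against 49.6% and a median of 0.00 over all genes. GCN4 itself had a mean of -0.71 ± 1.08 (SD, n = 3), with all 3 arrays below 0. The 4 genes of vitamin B6 salvage and transport had means of 0.18 ± 0.14 for PDX3, -0.45 ± 0.15 for BUD16 and 0.32 ± 0.44 for TPN1 (SD, n = 3 each) and of 0.22 for BUD17 on 2 arrays.

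**Figure D1:**
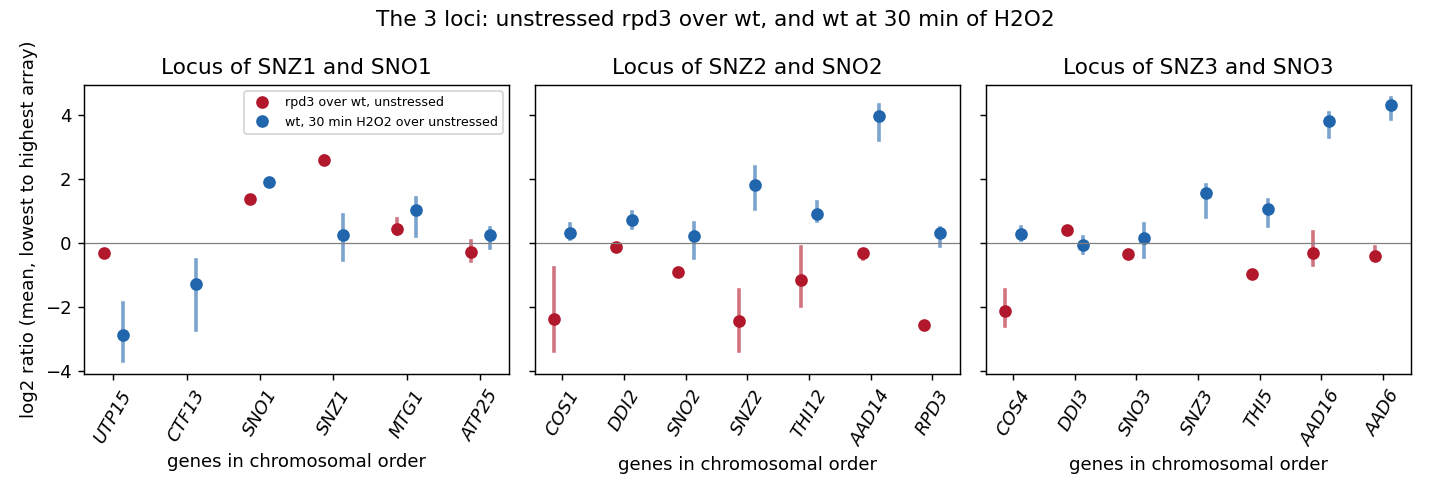
Log2 ratio (vertical axis) of each SNZ and SNO gene and its neighbours in chromosomal order at the 3 loci. Red shows unstressed rpd3 over wild type (up to 3 arrays) and blue shows wild type at 30 min of H2O2 over unstressed (up to 8 arrays), where points are means, lines run from the lowest to the highest array, and a gene with no point had no value. SNZ1 stands at 2.60 in red, with SNO1 at 1.36 on 1 array and MTG1 at 0.43 beside it, and SNZ2 stands at -2.43 in red and 1.80 in blue.

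Which arrays held a value differed by strain for every member but SNZ1 more than for nearly all genes. A blank cell is a spot without an accepted value, for which the sources used here give no criterion. SNZ1 was measured on all 109 arrays. SNO1 had a value on all 30 rpd3 arrays, against 15 of 35 wild-type arrays. The SNZ2 and SNZ3 pairs ran the other way. SNO3 had a value on 8 of 30 rpd3 arrays, against 31 of 35 wild-type arrays. SNO2 had a value on 10 of 30 rpd3 arrays, against 33 of 35 wild-type arrays. SNZ3 had a value on 14 of 30 rpd3 arrays, against 32 of 35 wild-type arrays. SNZ2 had a value on 21 of 30 rpd3 arrays, against 34 of 35 wild-type arrays. Over all genes the share measured was alike in both strains, at 87.9% on rpd3 arrays and 87.4% on wild-type arrays.

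The rpd3 share less the wild-type share was 57.1 percentage points for SNO1, a difference that 4 of the 6297 genes reached or passed, SNO1 among them. It was -61.9 points for SNO3 (2 genes as low or lower), -61.0 for SNO2 (3 genes), -44.8 for SNZ3 (18 genes) and -27.1 for SNZ2 (50 genes), each count including the member. The direction was the same within heat shock, H2O2 and NaCl for all 5 genes, and within stress relief for all but SNZ2, which had a value on 7 of 7 rpd3 arrays and 6 of 7 wild-type arrays. In NaCl SNO2 had a value on 0 of 7 rpd3 arrays, against 6 of 7 wild-type arrays, and in H2O2 SNO1 on 7 of 7 rpd3 arrays, against 2 of 12 wild-type arrays. The pho23 arrays held no SNO1 value on any of 7 arrays, whereas all 7 rco1 arrays had one. Means of these genes therefore cover the arrays on which they were measured, and the reason for the blanks was not tested.

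**Figure D2:**
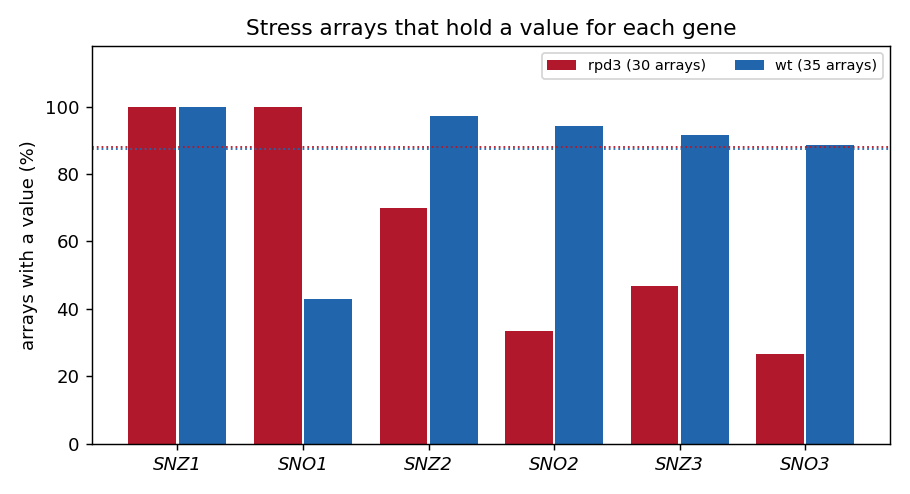
Share of stress and stress relief arrays (percent, vertical axis) that hold a value for each member, on rpd3 arrays (red, left bar) and wild-type arrays (blue, right bar). Dotted lines give the share over all 6297 genes, and SNO1 is the one member measured more often in rpd3 cells, while SNZ2, SNO2, SNZ3 and SNO3 were measured less often.

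In wild-type cells SNZ2 and SNZ3 rose at 30 min of H2O2, whereas SNZ1, SNO2 and SNO3 had means of 0.25, 0.21 and 0.15. This comparison asks how the family responds to peroxide when Rpd3p is present. SNZ2 had a lowest, median and highest value of 1.07, 1.85 and 2.36 over 8 arrays, a 3.48-fold rise at the mean of 1.80 ± 0.42 (SD, n = 8; limma adjusted p = 9.3e-11). All 8 arrays lay above 1. SNZ3 had 0.80, 1.64 and 1.82 over 7 arrays, a 2.92-fold rise (mean 1.55 ± 0.35, SD, n = 7; limma adjusted p = 9.41e-07). They are 2 of the 4 members tested, in a comparison where 75.9% of 5212 genes passed, 38.2% upwards and 37.8% downwards, so that the share called is no higher in the family than over all genes.

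SNZ1 had -0.53, 0.20 and 0.88 as lowest, median and highest value in wild type, with a mean of 0.25 ± 0.41 (SD, n = 8; limma adjusted p = 0.073). It passed the threshold without wild-type replicate 8, the array at -0.53 (mean 0.36, limma adjusted p = 0.00898). SNO3 had -0.43, 0.22 and 0.58, with a mean of 0.15 ± 0.37 (SD, n = 8; limma adjusted p = 0.192), and it too passed without replicate 8 (mean 0.23, limma adjusted p = 0.0418). SNO2 was measured on 7 arrays at -0.48, 0.27 and 0.61 and did not meet the filter of a value on 80% of the arrays in the fit. SNO1 had a single value, 1.90 on replicate 2. The 2 synthase genes SNZ2 and SNZ3 thus lay well above the glutaminase genes SNO2 and SNO3 beside them, a comparison of ratios and not of transcript levels.

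The genes beside SNZ2 and SNZ3 rose as well in wild type: all 4 neighbours tested at each of these loci passed the test upwards, as 38.2% of all genes did. AAD14 rose by 3.96 and AAD6, annotated as a pseudogene and close in sequence to AAD14, by 4.30 on the log2 scale (limma adjusted p = 2.95e-13 and 2.01e-14), above both SNZ genes. THI12 rose by 0.89 and THI5 by 1.06 (limma adjusted p = 1.99e-05 and 1.46e-08). At the SNZ1 locus UTP15, a ribosomal RNA processing gene, fell by 2.89 and MTG1 rose by 1.01 (limma adjusted p = 3.82e-12 and 5.23e-08). Among the other vitamin B6 genes, PDX3, the oxidase that makes pyridoxal 5′-phosphate in salvage, rose by 1.02 (limma adjusted p = 5.87e-11), while the kinase genes BUD16 and BUD17 and the transporter gene TPN1 fell by 0.87, 0.67 and 0.36 (limma adjusted p = 6.63e-09, 9.4e-06 and 0.00497).

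In thiamine metabolism 6 of 14 genes tested rose and 4 fell, with a median of 0.00, against 0.01 over all genes, of which 38.2% rose and 37.8% fell. THI13, of the THI5 family, rose by 1.36 and PHO3, the acid phosphatase of thiamine uptake, fell by 3.20 (limma adjusted p = 2.29e-06 and 2.09e-09). Of 29 tested genes of Gcn4p and amino acid synthesis 10 rose and 13 fell, with a median of -0.11, in the same comparison where 75.9% of all genes passed. GCN4 itself fell by 1.13 and ILV3, of valine and isoleucine synthesis, by 2.38, whereas LYS20, of lysine synthesis, rose by 1.69 (limma adjusted p = 1.54e-07, 2.23e-09 and 8.49e-11).

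Between mutants and wild type at 30 min of H2O2 the members that passed the test were SNZ2 (lower in pho23 and in msn2/msn4/rpd3), SNZ1 (higher in msn2/msn4/rpd3) and SNO3 (higher in msn2/msn4). These comparisons ask which Rpd3p complex and which activators the response depends on. All 6 use the same 8 wild-type arrays, so a shift of those arrays moves every one of them.

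In rpd3 cells no member of the 4 tested passed, in a comparison where 24.3% of 5195 genes did (14.2% upwards and 10.1% downwards). SNZ2 had 1.46 and 0.47 on the 2 rpd3 arrays that measured it, against a median of 1.85 and a lowest value of 1.07 in wild type. One rpd3 array lies below all 8 wild-type arrays and the other within their range. The difference was -0.83 (95% interval -1.47 to -0.19; limma adjusted p = 0.0527), and it passed without wild-type replicate 8 (-0.94, limma adjusted p = 0.0199) or replicate 4 (-0.89, limma adjusted p = 0.0441), with arrays centred on their median (-0.87, limma adjusted p = 0.036) and with the dye as a covariate (-0.89, limma adjusted p = 0.0446).

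SNZ3 had 1.96, 0.64 and 0.81 in rpd3 cells, against a median of 1.64 in wild type, a difference of -0.41 (95% interval -1.20 to 0.38; limma adjusted p = 0.486). It was -0.82 without rpd3 replicate 1, the array at 1.96, -0.16 without rpd3 replicate 2, -0.25 without rpd3 replicate 3 and 0.10 with arrays scaled to one median absolute deviation, so no direction is given. SNZ1 had 0.48, 0.53 and 0.65 in rpd3 cells, against a median of 0.20 in wild type, a difference of 0.31 (-0.19 to 0.80; limma adjusted p = 0.398). Its rpd3 values lie within the wild-type range. SNO3 had -0.10, -0.43 and -0.11 in rpd3 cells, against a median of 0.22, a difference of -0.36 (-0.78 to 0.05; limma adjusted p = 0.206). SNO1 had 0.55, 0.51 and 0.39 in rpd3 cells, against the 1 wild-type value of 1.90, and SNO2 had 0.32 and 0.04 in rpd3 cells, against a wild-type median of 0.27. Neither was tested at the main filter.

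In pho23 cells SNZ2 had 0.48, 0.60 and 0.86, against 1.07, 1.85 and 2.36 as the lowest, median and highest wild-type value. The groups do not overlap, and how many of all genes part in this way was not counted. The difference of -1.15 (95% interval -1.69 to -0.60; limma adjusted p = 0.00423) passed the test, as 8.6% of 5185 genes did in the lower direction, 9.87% in the higher and 18.5% in either. SNZ2 thus reached 1.57-fold at the mean in pho23 cells, against 3.48-fold in wild type. SNZ1 (-0.03, 0.10 and -0.41) and SNO3 (-0.24 and -0.05 on 2 arrays) lay at or below the wild-type medians of 0.20 and 0.22, and neither passed (differences of -0.36 and -0.29, limma adjusted p = 0.316 and 0.409). SNZ3 had 1 pho23 value, 0.75, below its lowest wild-type value of 0.80, and SNO1 and SNO2 had none at 30 min.

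In rco1 cells SNZ1 had 1.09, 1.24 and 1.37, above the highest of the 8 wild-type values (0.88), a trait not counted over all genes. Its difference of 0.98 (95% interval 0.49 to 1.48; limma adjusted p = 0.0651) did not pass, in a comparison where 0.443% of 5187 genes did (0.347% upwards and 0.0964% downwards). It passed without wild-type replicate 6, the array at 0.88 (1.07, limma adjusted p = 0.0351), and with arrays centred on their median (0.99, limma adjusted p = 0.0329). SNO1 had 1.02, 1.64 and 2.42 in rco1 cells, where wild type had 1.90 on its 1 array. SNZ2 (0.98, 1.56 and 1.58) and SNZ3 (0.92, 1.41 and 2.37) overlapped wild type, with differences of -0.42 (-0.97 to 0.12) and 0.02 (-0.77 to 0.81).

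In ume6 cells none of the 4 members tested passed, where 0.71% of 5208 genes did (0.211% upwards and 0.499% downwards). SNZ1 had 0.67, 0.37, 1.45 and 0.33, against a wild-type median of 0.20, a difference of 0.46 (95% interval 0.01 to 0.90; limma adjusted p = 0.261). SNZ2 had 1.51, 1.47, 1.54 and 0.56, against a wild-type median of 1.85, a difference of -0.53 (-1.02 to -0.03; limma adjusted p = 0.242). Replicate 4 lies apart from the other 3, and without it the difference was -0.29. SNZ3 gave the same picture, with 0.58 on replicate 4 and 1.41 to 1.51 on the rest.

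In msn2/msn4 cells SNO3 rose above wild type. It had 1.04, 1.41 and 1.41, against a wild-type range of -0.43 to 0.58, and the difference of 1.13 (95% interval 0.72 to 1.55; limma adjusted p = 0.00139) passed, as 1.51% of 5177 genes did in the higher direction, 3.28% in the lower and 4.79% in either. The call held without each array in turn (1.05 to 1.26). SNO2 had 0.38, 1.61 and 1.33, against a wild-type median of 0.27. It could be tested only with a looser filter, chosen after seeing the data, of 2 arrays in each strain, where its difference of 0.89 (0.24 to 1.55) did not pass (limma adjusted p = 0.106). SNZ2 (2.50, 1.91 and 2.07) and SNZ3 (2.76, 2.21 and 2.10) were at or above their wild-type medians of 1.85 and 1.64, with differences of 0.36 and 0.81 (limma adjusted p = 0.436 and 0.206). All 3 SNZ3 values exceed the highest wild-type value, 1.82, and how many of all genes do so was not counted. SNZ1 did not follow them, at 0.54, -0.10 and -0.20 and a difference of -0.17 (-0.67 to 0.32).

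In msn2/msn4/rpd3 cells the SNZ2 and SNZ1 calls went opposite ways. SNZ2 had -0.36 and -0.54 on the 2 arrays that measured it, where no wild-type array was below 1.07. The difference of -2.24 (95% interval -2.88 to -1.61; limma adjusted p = 1.29e-05) leaves it at 0.211 times the wild-type ratio, and 14.7% of 5122 genes passed in this direction, of 31.5% in either. Unstressed msn2/msn4/rpd3 cells were not set against wild type on any array, so the starting level of SNZ2 in this strain is not known. SNZ1 had 0.79, 1.17 and 0.78, against 0.20 as the wild-type median, a difference of 0.67 (0.17 to 1.16; limma adjusted p = 0.0357), where 16.8% of genes passed upwards. Of its 3 values 2 lie within the wild-type range. The SNZ1 call was lost without any 1 of the 3 msn2/msn4/rpd3 arrays (limma adjusted p from 0.0626 to 0.168) or without wild-type replicate 4, 7 or 8 (0.0506 to 0.0525).

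SNZ3 had 2.13 on replicate 1, where SNZ2 had no value, and 0.16 on replicate 3, where SNZ2 had -0.54. These values are too far apart for its difference of -0.40 (-1.32 to 0.52; limma adjusted p = 0.536) to show a direction. SNO1 had 0.53, 0.72 and 0.77, SNO2 had -0.83 and -0.06 on 2 arrays, and SNO3 had no value in this strain.

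The neighbours of SNZ2 and SNZ3 did not follow one direction in these mutants. AAD16, an entry of the expression table placed between THI5 and AAD6, is not listed there in the RefSeq annotation. It rose in rpd3 cells by 1.29 over wild type and in msn2/msn4/rpd3 cells by 1.77 (limma adjusted p = 0.0104 and 0.00228). COS4 fell by 0.74 in rpd3, 0.57 in pho23 and 1.14 in msn2/msn4/rpd3 cells (limma adjusted p = 0.00367, 0.0109 and 8.51e-06), and COS1 fell by 0.56, 0.68 and 0.64 in the same strains (limma adjusted p = 0.0332, 0.00558 and 0.0129). THI5 was higher by 0.85 in rpd3 cells (limma adjusted p = 0.00446). THI13, of the same family but beside no SNZ gene, also had a higher mean in rpd3 cells, at 2.29 against 1.36 in wild type. At the SNZ1 locus UTP15 was higher by 2.47 in rpd3, 2.20 in pho23 and 2.55 in msn2/msn4/rpd3 cells (limma adjusted p = 5.11e-05, 0.000371 and 1.86e-05), its mean in wild type being -2.89.

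Among the vitamin B6 salvage genes the same 3 of 4 passed in rpd3, pho23 and msn2/msn4/rpd3 cells, in comparisons that share the wild-type arrays and where 24.3%, 18.5% and 31.5% of all genes passed in the same order of strains. BUD16 and BUD17, which fell in wild type, were higher in rpd3 (by 0.58 and 0.90), pho23 (by 0.94 and 0.82) and msn2/msn4/rpd3 cells (by 0.78 and 0.96), and PDX3, which rose in wild type, was lower by 0.44, 0.46 and 0.74 in those strains. The limma adjusted p of these 9 differences lay between 0.000605 and 0.0361. TPN1 passed in none of them. No vitamin B6 salvage gene passed in rco1, ume6 or msn2/msn4 cells. Of the thiamine list, 2 of 14 genes tested passed in rpd3 cells, THI5 and the regulator PDC2 (0.68, limma adjusted p = 0.00512), both higher, a share below the 24.3% of all genes. Of 29 genes of Gcn4p and amino acid synthesis, 2 were higher and 2 lower in rpd3 cells, again a share below that of all genes. LYS1 was lower by 1.37 and ARG1 by 1.02, and ARG8 and TRP2 were higher by 0.65 and 0.69 (limma adjusted p from 4.6e-05 to 0.0421). In msn2/msn4 cells 28 of the 29 lay above 0, with a median of 0.29, against 54.6% and a median of 0.05 over all genes, and none passed.

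With H4KQ cells none of the 6 members, all tested here, passed against NSY429, in a comparison where 3 of 5091 genes did (0.0589%, with 0.0196% upwards and 0.0393% downwards) and 721 had an unadjusted p under 0.05. SNZ1 had 0.75, 0.76 and 1.51 in H4KQ cells, against 1.51, 0.36 and 0.99 in NSY429, with a difference of 0.05 (95% interval -0.76 to 0.87). SNZ2 had 1.19, 1.17 and 0.97 in H4KQ cells, against 0.69, 1.10 and 1.41 in NSY429, with a difference of 0.04 (-0.54 to 0.63). The intervals of the other 4 genes run from -0.89 at the lowest to 0.81 at the highest. Both strains had positive ratios of SNZ1, SNO1, SNZ2 and SNZ3 on every array.

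**Figure D3:**
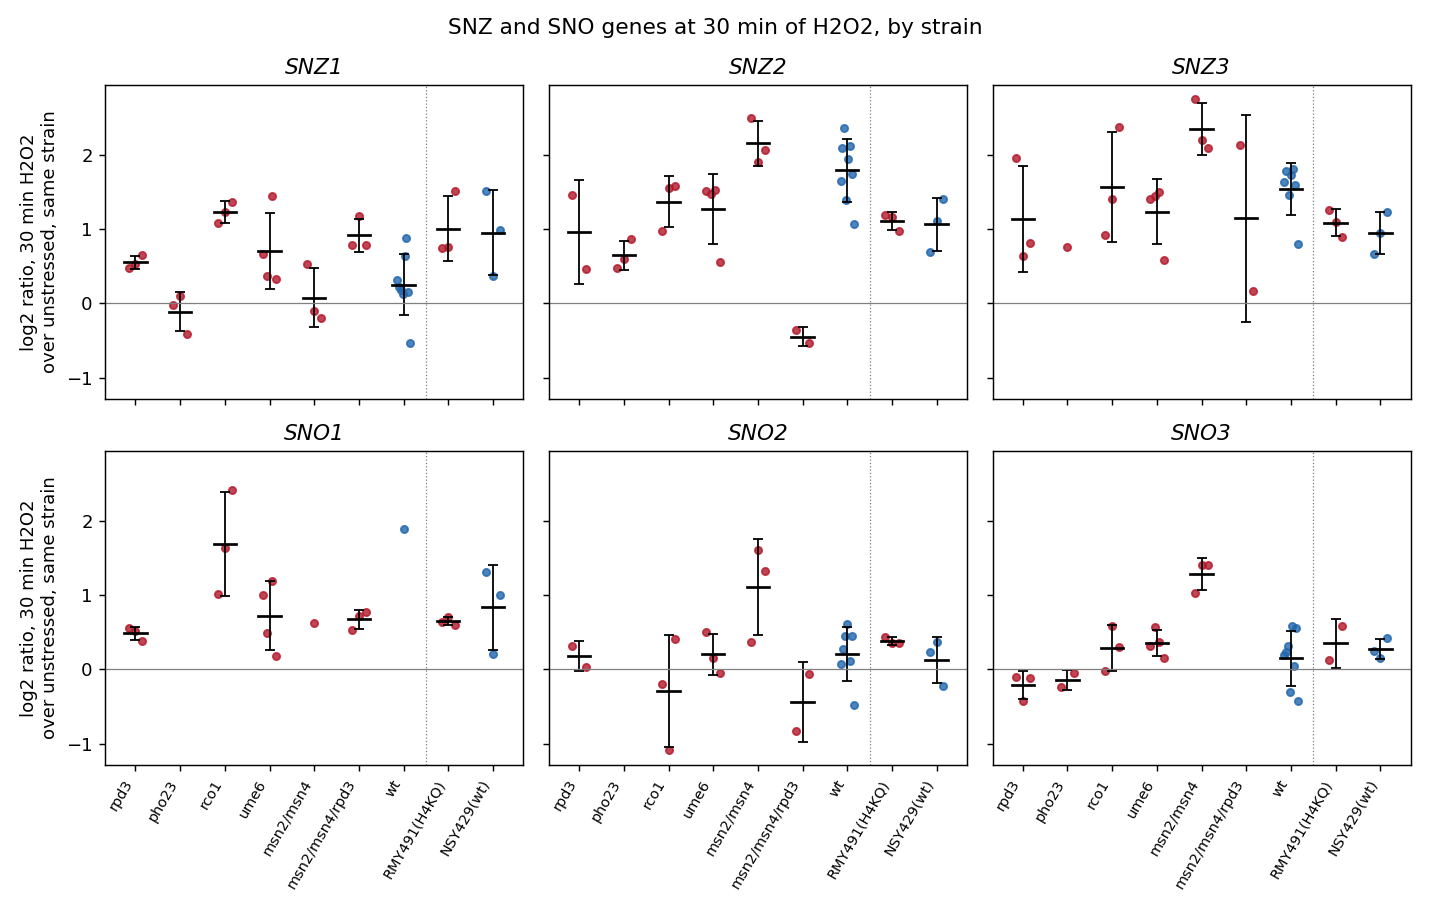
Log2 ratio at 30 min of H2O2 over unstressed cells of the same strain (vertical axis) for each member, with 1 point per array that measured it. Mutants are red and the wild types blue, horizontal bars are means, error bars are SD, and a dotted line parts RMY491(H4KQ) and NSY429(wt) from the BY4741 strains. SNZ2 is lowest in msn2/msn4/rpd3 cells and SNO3 highest in msn2/msn4 cells.

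Through the time courses SNZ1 was the member with a value on every array, and its rpd3 and wild-type courses stood apart in NaCl and stress relief. These courses ask whether rpd3 cells respond in the same way over time. In heat shock SNZ1 was above 0 in both strains on every array from 10 min on. It reached 1.51 in rpd3 cells at 30 min of course 1 and 2.05 at 60 min, against 2.22 and 0.57 in wild type. In course 2 it had 1.89 and 2.22 in rpd3 cells at 30 and 60 min, against 1.80 and 1.68 in wild type. Over the shared times of 5, 30 and 60 min the course means averaged 1.27 in rpd3 cells and 1.07 in wild type, a difference of 0.21 (95% interval -0.38 to 0.79; limma adjusted p = 0.881, 2 courses each). No gene of 3234 (0%) passed in that comparison, and 313 had an unadjusted p under 0.05.

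In NaCl every SNZ1 value was higher in rpd3 cells at its time and course. Course 1 gave 0.49, 0.75, 1.81 and 1.66 at 15, 30, 60 and 90 min in rpd3 cells, against -1.57, -0.34, 0.34 and 0.36 in wild type. Course 2 gave 0.42, 0.69 and 0.73 at 30, 45 and 60 min in rpd3 cells, against 0.00, -0.18 and 0.16 in wild type. All 7 rpd3 values exceed all 7 wild-type values, which was not counted over all genes, and the mean of the 7 matched differences was 1.11. With 1 mean per course over 30 and 60 min, the difference was 0.89 (0.93 in rpd3 cells and 0.04 in wild type; 95% interval 0.21 to 1.57; limma adjusted p = 0.138), in a comparison where 5.4% of 4132 genes passed (3.15% upwards and 2.25% downwards). Without rpd3 course 1 the difference was 0.54, and no gene passed without any 1 of the 4 courses.

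In stress relief SNZ1 stayed above 0 in rpd3 cells on all 7 arrays. Course 1 gave 1.20, 1.25, 1.02 and 0.26 at 5, 10, 20 and 40 min in rpd3 cells, against 0.32, 0.37, 0.30 and -0.36 in wild type. Course 2 gave 2.33, 2.18 and 1.70 at 10, 40 and 60 min in rpd3 cells, against 0.49, 0.22 and -0.28 in wild type. At each of the 7 matched times rpd3 was higher, by 1.27 on average, and course 2 was higher than course 1 in rpd3 cells at both shared times. The mean over 10 and 40 min differed by 1.33 (1.51 in rpd3 cells and 0.18 in wild type; 95% interval 0.07 to 2.58; limma adjusted p = 0.882), and no gene of 4072 (0%) passed, with 200 at an unadjusted p under 0.05. Without rpd3 course 2 the difference was 0.58 and without rpd3 course 1 it was 2.07. Over all genes the gap between courses 1 and 2 went together in both strains (r = 0.67). In a fit with the course number as a block, given with the alternatives below, the SNZ1 difference passed the test. The labels give no shared batch or day for courses of equal number. Times within a course share a culture and are not replicates, so the 7 matched times add no further test.

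In the H2O2 course, whose 30 min arrays are also replicate 1 above, SNZ1 had 0.63, 0.67, 0.48, 0.24 and 0.03 at 10, 20, 30, 40 and 60 min in rpd3 cells, against -0.19, 0.14, 0.32, 0.16 and 0.94 in wild type. The rpd3 course was the higher one up to 40 min and the lower one at 60 min. The rco1 course was above both from 20 min on, with 0.91, 1.09, 1.74 and 1.60 at 20, 30, 40 and 60 min, and the pho23 course stayed at or below 0, with -0.99, -0.18, -0.03, -0.02 and -0.05 from 10 to 60 min. Each is 1 course with no replicate.

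SNO1 was measured on every rpd3 array but could seldom be compared with wild type. In heat shock it reached 1.27 in rpd3 cells at 60 min of course 2, against 2.44 in wild type, and 1.16 at 60 min of course 1, against 0.22 in wild type. At that time the wild-type courses differ from each other by more than the strains do in either course. In NaCl SNO1 was at -0.71, -1.26, 0.62 and 1.25 through course 1 in rpd3 cells, with no wild-type value in that course. In stress relief it lay between 0.70 and 1.51 on all 7 rpd3 arrays, against -0.34 to 1.01 on the 4 wild-type arrays that measured it, and was higher in rpd3 cells at all 4 matched times.

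**Figure D4:**
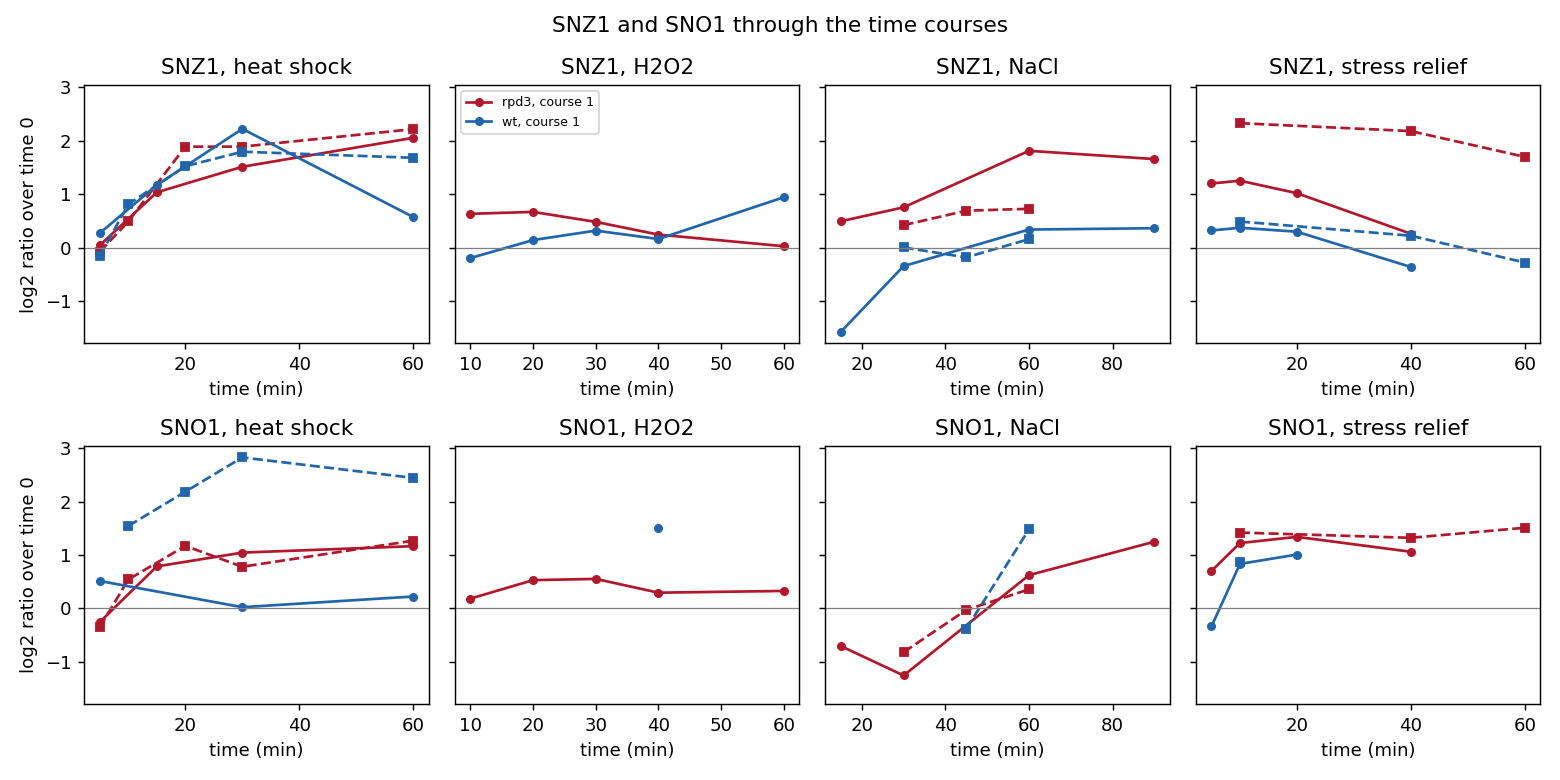
SNZ1 (top row) and SNO1 (bottom row) through the 4 treatments, as log2 ratio over time 0 (vertical axis) against time in minutes. Red lines are rpd3 and blue lines wild type, circles and solid lines are course 1, squares and dashed lines are course 2, and missing points had no value. The rpd3 courses of SNZ1 lie above both wild-type courses at every matched time in NaCl and stress relief and run with them in heat shock.

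The SNZ2 and SNZ3 pairs gave fewer values in these courses. In H2O2 SNZ2 had 0.61, 0.65, 0.79 and 0.40 at 10, 20, 40 and 60 min in rpd3 cells, against 0.72, 1.61, 1.42 and 0.72 in wild type, and rpd3 was lower at all 4 times. In pho23 cells it had 0.21, 0.12, 0.48, 0.36 and 0.22 from 10 to 60 min, below the wild-type value at each time. SNZ3 was lower in rpd3 cells at 3 of 4 matched times of H2O2. At 60 min of heat shock course 1 SNZ2 had -0.10 and SNZ3 -0.12 in rpd3 cells, against 0.84 and 0.85 in wild type. At 60 min of course 2 neither had an rpd3 value, and wild type had 1.26 and 1.72. In NaCl SNZ3 was below 0 on both rpd3 arrays and on all 5 wild-type arrays that measured it, and SNZ2 on 1 of 3 rpd3 arrays and on 6 of 7 wild-type arrays. In stress relief the few rpd3 values (3 for SNO2 and 1 for SNO3) were all above 0, whereas in wild type SNO2 was below 0 on 6 of 7 arrays and SNO3 on all 6, from -0.86 to -0.03.

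The plasmid and TSA arrays, 1 per condition and with no test, gave SNZ1 ratios above 0 in heat shock on all but the 5 min DMSO array. At 20 min of heat shock SNZ1 had 0.59 in rpd3 cells with the catalytically inactive rpd3-H150:151A plasmid, 0.82 with the empty vector and 1.21 with the RPD3 plasmid. At 30 min of H2O2 it had -0.11 with the rpd3-H150:151A plasmid and -0.41 with the RPD3 plasmid. The RPD3 plasmid gave SNZ2 and SNZ3 values of 0.83 and 0.91 in H2O2, where the rpd3-H150:151A plasmid gave no value for either, nor for SNO2 and SNO3. In heat shock SNO3 had 1.20 with the RPD3 plasmid and no value with the other 2 plasmids. SNZ2 and SNZ3 did have heat shock values with the rpd3-H150:151A plasmid, at 0.07 and 1.97, against 0.58 and 0.21 with the RPD3 plasmid, so SNZ2 was lower and SNZ3 higher with the inactive enzyme. With the empty vector SNZ3 had -0.09 and SNZ2 no value. In wild type treated with TSA, SNZ1 had 0.34, 1.18 and 1.89 at 5, 15 and 30 min of heat shock, against -0.12, 0.94 and 1.40 with DMSO. TSA was higher at each time. SNZ2 had -0.57, 0.00 and -0.10 with TSA, against -0.06, 0.19 and 0.69 with DMSO, and was lower with TSA at each time, as SNZ3 was (-0.40, -0.17 and -0.12 with TSA, against -0.22, 0.13 and 0.50 with DMSO).

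Correlations across arrays are described here with no test because the arrays share strains, cultures and times. SNZ2 and SNZ3 varied together, with Pearson's r = 0.87 over the 78 arrays that measured both and a median difference of 0.17 in size. On 66 of the 78 they lay within 0.5 of each other. The largest gap was at 20 min of heat shock with the rpd3-H150:151A plasmid, with 0.07 for SNZ2 and 1.97 for SNZ3. SNO2 and SNO3 had r = 0.65 over 65 arrays, 53 of them within 0.5. The genes of each of these sets are close copies, and the sources used here do not give the spotted sequences, so how far each spot reads its own gene alone was not tested. SNZ1 and SNO1 had r = 0.51 over 76 arrays. Between a synthase gene and the glutaminase gene beside it, r was 0.43 for SNZ2 and SNO2 (73 arrays) and 0.45 for SNZ3 and SNO3 (67 arrays), below the value between the SNZ2 and SNZ3 copies. SNZ1 had r = -0.22 with SNZ2 over 95 arrays, which include 2 of the unstressed arrays that chose SNZ1, and r = -0.07 over the 93 arrays without them. With SNZ3 it had r = 0.01 over 82 arrays, none of them unstressed.

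Among 5156 genes measured on at least 80% of arrays and sharing at least 60 arrays with SNZ1, those with the most similar ratios were CSF1 (r = 0.62), TEL1 (0.61), AMN1 (0.60), MET5 (0.59) and SCC2 (0.57), over 105 to 109 arrays. For SNZ2 they were CTA1, the peroxisomal catalase (r = 0.70), CUE5 (0.68), IMA2 (0.68), ATP11 (0.68) and CYC1, cytochrome c (0.68), over 81 to 94 arrays. The lists share no gene, and both include unstressed arrays, on which SNZ1 was chosen. Without those arrays, a setting chosen after seeing the data, the values for SNZ1 were 0.57, 0.56, 0.55, 0.56 and 0.52 in the same order of genes over 102 to 106 arrays. For SNZ2 they were 0.73, 0.70, 0.56, 0.69 and 0.70 over 79 to 92 arrays, and IMA2 then ranked 61 of 5156.

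**Figure D5:**
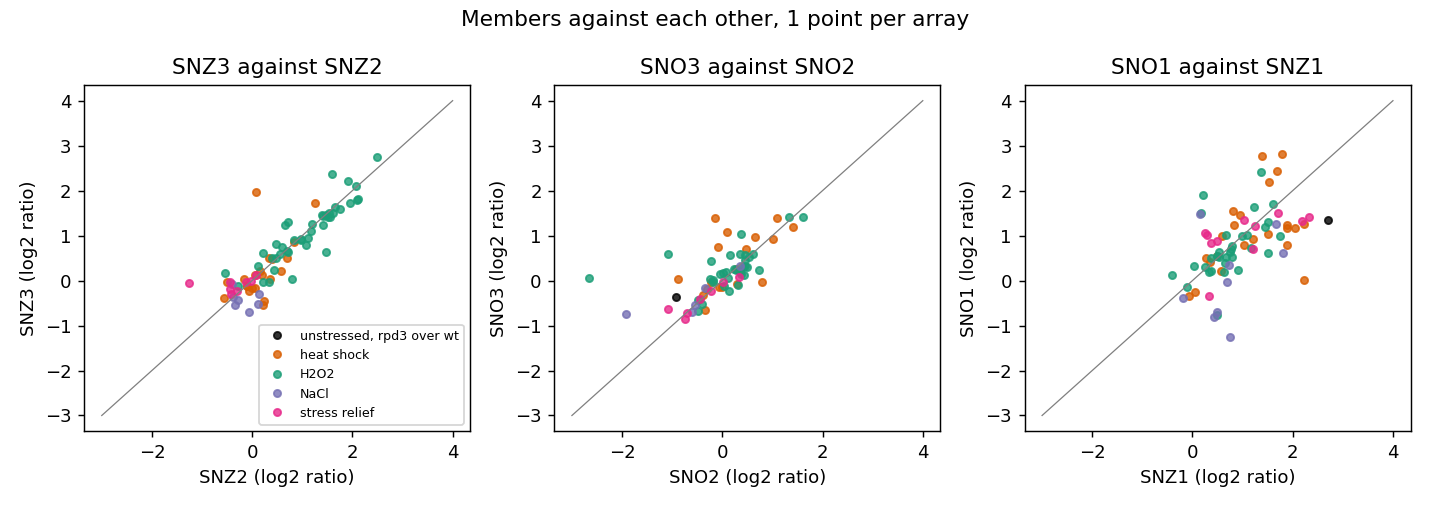
Log2 ratios of 2 members against each other, 1 point per array that measured both, coloured by treatment. The grey line marks equal ratios. SNZ2 and SNZ3 follow it with r = 0.87 over 78 arrays, SNO2 and SNO3 less closely with r = 0.65 over 65 arrays, and SNZ1 and SNO1 spread widely around it with r = 0.51 over 76 arrays.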

How the data were processed

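Total RNA was labelled with Oyster 550 and 650 cyanine dyes and hybridised on 109 arrays. The authors deposited 1 table of log2 ratios per gene and array, with blanks. The spotted sequences, the normalization and the spot filters are not given in the sources used here. Ratios run stressed over unstressed, or rpd3 over wild type, as deposited. No column was left unused (0), and no columns of the authors' own comparisons were present. Gene names came from RefSeq R64, in which 5832 of 6297 identifiers matched a locus tag.

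Strain means at 30 min of H2O2 were fitted with limma 3.58.1 (R 4.3.3), all BY4741 strains in one fit, and H4KQ with NSY429 in another. Genes needed a value on 80% of the arrays in the fit and on 2 arrays of each strain compared. Time courses were compared as 1 mean per course over the shared times. P-values were adjusted by Benjamini-Hochberg over all genes tested, with a threshold of 0.05. The comparisons were tested on simulated data. Alternatives were median centring, scaling to one median absolute deviation, other filters, a dye covariate, a replicate block, fits of the compared strains alone and each array left out in turn. A filter of 2 arrays per strain compared, and correlations without the unstressed arrays, were added after seeing the data. The members and gene lists were chosen with earlier results of these data known. Named were the members, the listed genes that passed, their neighbours, and the 5 genes most correlated with SNZ1 and with SNZ2. The number of arrays limits the precision. Descriptions and plots were made with Python 3.11.15, pandas 2.3.3 and matplotlib 3.10.9.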

Additional observations from a re-analysis of the deposited data

Results flagged for a closer look

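In 10 sets of values, each of 1 member in 1 group of 4 to 10 arrays, 3 had an array far from the others by Dixon's criterion. Chance gives about 1 in 20 for a single set. These sets all come from the wild-type and ume6 arrays at 30 min of H2O2. They share arrays and are not independent, so the 3 cannot be weighed against that rate. At 30 min of H2O2 ume6 replicate 4 had 0.563 for SNZ2 and 0.583 for SNZ3, apart from the other 3 arrays in both genes. Wild-type replicate 8 had 0.801 for SNZ3, below the other 6 arrays with a value, and it also held the lowest wild-type value of SNZ1, SNZ2, SNO2 and SNO3.

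Differences between a mutant and wild type at 30 min of H2O2 that passed limma's test were -1.148 for SNZ2 in pho23, 1.134 for SNO3 in msn2/msn4, 0.667 for SNZ1 in msn2/msn4/rpd3 and -2.244 for SNZ2 in msn2/msn4/rpd3. For the last of these every mutant array with a value (2 of 3) lay below 0 and every wild-type array (n = 8) above 0.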

How the results depend on the processing

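The 6 genes gave 35 fitted results and 518 values under alternatives, of which 489 kept their direction and side of the threshold, 7 lost the call, 10 gained it and 12 changed sign. The SNZ2 calls in wild type, pho23 and msn2/msn4/rpd3, the SNZ3 call in wild type and the SNO3 call in msn2/msn4 held under every alternative run. Some alternatives could not be run for them. Requiring a value on every array left SNZ2, SNZ3 and SNO3 untested. For SNZ2 in msn2/msn4/rpd3 no fit was possible without either of the 2 mutant arrays that measured it. The number of arrays limits the precision.

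Requiring a value on every array gave 1815 genes called for wild type at 30 min of H2O2, 543 for rpd3, 427 for pho23, 10 for rco1, 19 for ume6, 84 for msn2/msn4, 732 for msn2/msn4/rpd3 and 8 for H4KQ, against 3958, 1264, 958, 23, 37, 248, 1611 and 3 with the filter used. Replicate numbers did not pair the H2O2 arrays (r of deviations from -0.388 to 0.259 over 22 pairs), and only 2 pairs of courses exist. A replicate block gave 9 calls for rco1, 12 for ume6, 0 for H4KQ, 94 for heat shock and 139 for stress relief, the last 2 against 0. With the block the SNZ2 difference in rpd3 was -1.17 (limma adjusted p = 0.012), SNZ1 in msn2/msn4/rpd3 0.63 (0.0734), SNZ1 in stress relief 1.33 (0.029) and SNZ3 in rco1 -0.211, a change of sign. Fitting the compared strains alone gave 11 calls for rco1, 0 for ume6 and 145 for msn2/msn4. Scaling arrays to one median absolute deviation gave 1 call for ume6, 126 for msn2/msn4, 0 for H4KQ and 0 for NaCl, and turned the SNZ3 differences to 0.103 in rpd3, 0.040 in ume6 and 0.012 in msn2/msn4/rpd3. The dye as a covariate gave 24 calls for ume6 and 0 for H4KQ, and genes measured at 1 or more shared times of NaCl gave 0 calls. Causes were not tested. A looser filter of 2 arrays per strain compared, chosen after seeing the data, kept every count within 1.5 times. Without the 3 unstressed arrays, also chosen after seeing the data, the correlations of SNZ1 with SNZ2 (-0.22) and of SNZ2 with IMA2 (0.68) were -0.07 and 0.56, and the other pairs of members and most similar genes moved by less than 0.1.

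Leaving out each array or course in turn gave 3844 to 3958 calls for wild type, 792 to 1373 for rpd3, 503 to 1179 for pho23, 5 to 42 for rco1, 10 to 202 for ume6, 61 to 649 for msn2/msn4, 1107 to 1745 for msn2/msn4/rpd3, 0 to 13 for H4KQ, 0 to 48 for heat shock, 0 for NaCl against 223, and 0 to 22 for stress relief. It let these differences pass 0: SNZ3 (-0.385 to 0.343) and SNO3 (-0.010 to 0.294) in rco1, and SNZ1 (-0.241 to 0.332), SNO1 (-0.503 to 0.051), SNZ2 (-0.145 to 0.213) and SNZ3 (-0.008 to 0.280) in H4KQ.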

Other observations

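SNZ2 had a ratio of 4.03 at 5 min of heat shock course 2 in rpd3 cells, the highest value of any member in the heat shock courses, where wild type had -0.51. That array held no value for SNO2, SNZ3 or SNO3, and the rpd3 arrays at later times of this course held none for SNZ2. In pho23 cells SNO2 was measured on 2 of 7 arrays, at -2.66 and -0.24.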
